A study of Mus musculus with 8 samples.

Results

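The genes of the translation initiation and elongation factors were compared in the medial prefrontal cortex (mPFC) between a retrieval and a non-retrieval group of mice, in a study of a drug-associated memory. They were chosen as every protein-coding row of the deposited count table whose gene name starts with Eif or Eef and that had at least 10 reads in each of 8 libraries. This rule gave 65 of the 54532 rows of the table, or 65 of the 69 protein-coding rows with such a name. All 65 were among the 16745 genes tested. The rule itself uses no difference between the groups, but it was set with earlier results of these data known.

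The study asked which transcripts differ in the mPFC when mice retrieve a conditioned place preference (CPP) memory for the psychostimulant methamphetamine (METH). CPP pairs a drug with 1 compartment of an apparatus, and the memory is read from the time an animal later chooses to spend there. The retrieval group and the non-retrieval group each had 4 libraries from adult male C57BL/6 mice, with no allele, transgene or further agent named in the labels. Tissue was taken 1 h after the CPP test had ended, each library was a pool of 2 to 3 mice, and the handling of the non-retrieval mice is not described in the labels, so retrieval, exposure to the apparatus and handling cannot be told apart.

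Protein synthesis begins when eIF2 carries the initiator methionyl-tRNA, loaded with GTP, to the small ribosomal subunit, where eIF3, eIF1, eIF1A and eIF5 gather. The cap-binding complex eIF4F (the cap binder eIF4E, the scaffold eIF4G and the helicase eIF4A) brings in the messenger RNA. eIF4E-binding proteins block this step until the kinase complex mTORC1 phosphorylates them, and kinases that phosphorylate the alpha subunit of eIF2 keep its exchange factor eIF2B from reloading it with GTP. Once the start codon is found and the large subunit has joined, eEF1A brings in each aminoacyl-tRNA and eEF2 moves the ribosome along, a step that the kinase eEF2K inhibits. In neurons these control points are known for their part in long-lasting synaptic plasticity and memory, and much of their control acts on proteins, which a count of transcripts does not measure.

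Promoter sequences are shown for the 2 differing members that have upstream bases free of annotated exons and for 4 genes of the cap-binding complex and its cofactors. RefSeq (build GRCm38.p6) gave a window of 250 bases before to 50 bases after the start for 52 of the 65 members. The windows were searched on both strands for 4 letter strings, none of which contains another: CACGTG (an E-box), TGACGTCA (the cAMP response element, CRE), CCGGAAG (an ETS-family motif) and TGATGNAA (an ATF4-type composite element). The first 2 sequences are stretches of 150 bases that end before the gene's start, at chr10:61452670-61452819 on the minus strand for Eif4ebp2 and at chr12:111537866-111538015 on the plus strand for Eif5, with capitals marking the reverse complement of the ETS letters. The Eif5 stretch holds none of the 4 strings.
Eif4ebp2: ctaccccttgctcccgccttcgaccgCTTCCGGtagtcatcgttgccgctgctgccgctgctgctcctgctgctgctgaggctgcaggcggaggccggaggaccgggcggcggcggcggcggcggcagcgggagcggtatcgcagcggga
Eif5: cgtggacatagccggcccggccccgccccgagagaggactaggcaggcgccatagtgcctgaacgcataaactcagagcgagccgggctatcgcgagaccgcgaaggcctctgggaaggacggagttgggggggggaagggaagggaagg
The next 4 sequences are windows of 30 bases around an E-box, in capitals, from genes shown because they hold this match. They lie at chr3:138527192-138527221 (plus strand) for Eif4e, chr11:69672595-69672624 (minus) for Eif4a1, chr16:20672661-20672690 (plus) for Eif4g1 and chr5:134639488-134639517 (minus) for Eif4h, and their E-boxes begin 64, 189, 54 and 96 bases before the RefSeq start. The E-boxes of Eif4e and Eif4g1 lie inside the gene model of the deposited table, which starts further upstream.
Eif4e: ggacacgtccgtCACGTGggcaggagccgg
Eif4a1: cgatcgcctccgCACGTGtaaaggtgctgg
Eif4g1: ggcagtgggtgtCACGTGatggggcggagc
Eif4h: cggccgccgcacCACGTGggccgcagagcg
A gene with several RefSeq starts had several windows and was counted if any of them matched, and the number of starts was not adjusted for. An E-box was in at least 1 window of 12 of the 52 members (23.1%), against 11.28% of 11926 tested genes with a window. Of the related eIF4 genes, Eif4a2, Eif4b, Eif4e2, Eif4e3, Eif4g2 and Eif4g3 were not among these 12. The ETS letters were in 17 members (32.7%, against 17.71%), the CRE in Eef2 only (1.9%, against 3.43%) and the ATF4-type letters in Eef2k and Eif2s3x (3.8%, against 2.73%). A match is a description of letters and not a measured binding site.

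The libraries held 25013503 to 29547978 reads and 23474 to 24671 genes with at least 1 read. In edgeR's quasi-likelihood test with Benjamini-Hochberg adjustment, 766 of the 16745 tested genes passed an adjusted p of 0.05 (4.57%), of which 615 were higher (3.67%) and 151 lower (0.902%) in the retrieval group. With a per-library offset for length and GC content of the genes the split was 784 higher (4.69%) and 708 lower (4.23%). Pools are the replicates, so these p-values measure the spread between pools of mice. A bulk level cannot tell fewer cells of a type from less RNA per cell. Markers of myelin, the sheath made by oligodendrocytes, moved with the groups: the log2 fold change was positive for all 12, of which 7 rose, and their summed level was 3474 to 4111 CPM (reads of a gene relative to the scaled size of its library) in the non-retrieval libraries and 4217 to 6128 CPM in the retrieval libraries. These myelin ranges did not overlap, so a fit with the myelin markers as a covariate cannot separate their level from the group. Cortical identity was present throughout. Excitatory cortical neuron markers were at a summed 5807 to 6301 CPM in the non-retrieval and 5476 to 6494 CPM in the retrieval libraries.

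Together the 65 members took 1.08% to 1.17% of all reads in each library. Levels of different genes are compared as TPM, a share of the library's transcripts in which reads are divided by the length of the deposited gene model. The elongation factors were by far the most abundant class, with a summed 7617 TPM on average over the 8 libraries, against 1547 TPM for 10 genes of the cap-binding and helicase class, 1226 TPM for 14 eIF3 subunit genes and 126 TPM for 4 eIF2 subunit genes. Eef1a2, the eEF1A form of adult neurons and muscle, stood at a mean of 2798 TPM, Eef1a1, the form of most other cells, at 2545 TPM, and Eef2 at 1759 TPM. These 3 genes held 53.8% to 58.6% of the summed TPM of all members in every library. The least abundant members were Eif2ak2 (2.83 TPM), the double-stranded RNA-activated kinase PKR, Eif3j2 (2.91 TPM) and Eef2kmt (4.21 TPM), a methyltransferase of eEF2.

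**Figure D1:**
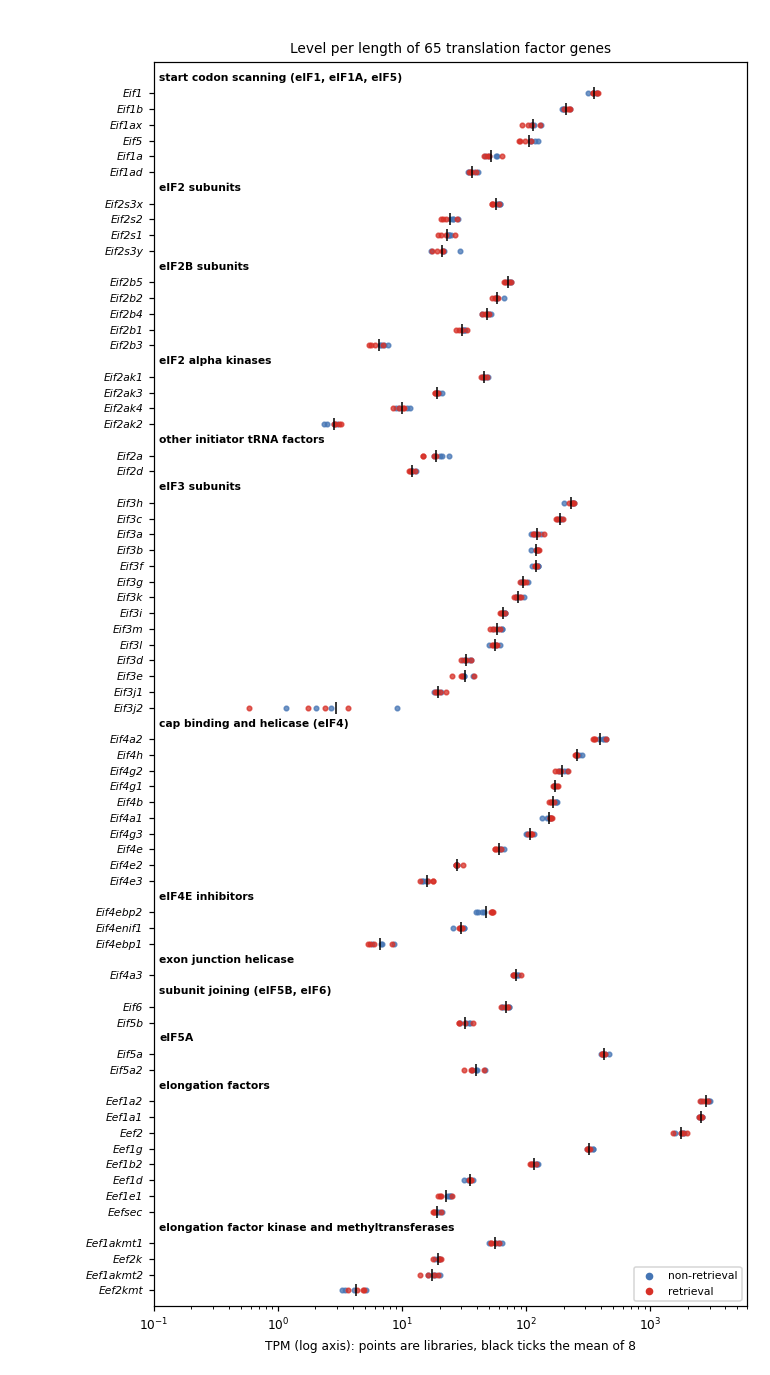
Level of each of the 65 genes in TPM on a log axis, by class, with a point for each of 4 non-retrieval (blue) and 4 retrieval (red) libraries and a black tick at the mean of 8. Levels span from under 1 TPM in 1 library of Eif3j2 to a mean of 2798 TPM for Eef1a2, and for most genes the points of both colours lie on top of each other.

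Abundance also varied inside complexes whose subunits act together. Among 5 subunits of eIF2B the highest, Eif2b5 (the catalytic epsilon subunit, 71.3 TPM), was 10.9 times the lowest, Eif2b3 (the gamma subunit, 6.53 TPM). This ratio depends on the deposited gene lengths, 2595 bases for Eif2b5 and 6520 bases for Eif2b3. Before division by length, their mean levels were 52.2 and 12.8 CPM in the non-retrieval and 50.4 and 10.8 CPM in the retrieval libraries. The eIF2 subunits were closer, with Eif2s3x at 57.4 TPM, Eif2s2 at 24.4 TPM, Eif2s1 at 23.2 TPM and Eif2s3y, the Y-linked copy of Eif2s3x, at 21.01 TPM. Apart from Eif3j2, a second copy of Eif3j1 with near-identical sequence whose reads the counting may split, the eIF3 genes ran from Eif3j1 (19.6 TPM) to Eif3h (231 TPM). Among the helicases, Eif4a2, the paralogue prominent in brain, had 395 TPM and Eif4a1 had 153 TPM. The cap binder Eif4e had 60.3 TPM, against 27.8 TPM for Eif4e2 and 15.8 TPM for Eif4e3, its relatives.

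The members just inside the minimum of 10 reads were Eif3j2, with 10 to 167 reads per library, Eef2kmt, with 64 to 105, and the eIF4E inhibitor Eif4ebp1, with 87 to 140. The 4 genes outside it were Eef1akmt4 (3 to 24 reads), Eif4ebp3 (2 to 11 reads), Eef1akmt3 (0 to 6 reads) and Eif4e1b, the germ-cell relative of Eif4e, with 0 reads in all 8 libraries.

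Between the groups the translation factor genes differed little. In edgeR's quasi-likelihood test with Benjamini-Hochberg adjustment across the table, 1 of 65 members was higher in the retrieval group (Eif4ebp2) and 2 were lower (Eif5 and Eif2a), 4.62% of the members against the 4.57% called among all tested genes. By direction, 1.54% of the members were higher, against 3.67% of tested genes, and 3.08% were lower, against 0.902%. At an unadjusted p of 0.05, 1 member was higher (1.54%) and 8 were lower (12.3%), where 11.2% and 7.27% of all tested genes were. The 4 retrieval libraries lay entirely above or below the 4 non-retrieval libraries in 7 members (10.8%), against 11.1% of tested genes. The shares in either direction together were close to the background. By direction, fewer members were higher and more lower than among all genes, which at the adjusted threshold rests on 1 and 2 members. DESeq2 called the same 3 members, and limma-voom with quality weights called these 3 and also Eif2b3, Eif2s2 and Eif4a2 as lower (adjusted p = 0.0444, 0.0423 and 0.0228). Calls over all 16745 tested genes rose with limma-voom too, to 1110 higher and 509 lower, from 615 and 151 in edgeR.

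The direction of the small differences was uneven. A total of 48 of 65 members (73.8%) had a negative log2 fold change (retrieval over non-retrieval), against 52.2% of all tested genes, and the median was -0.05 against -0.01. Differences were also narrow: 42 members (64.6%) had a log2 fold change within 0.1 of 0, against 43.9% of tested genes. The members are highly expressed, and among the 9809 tested genes with a mean of at least 10 CPM 55.8% were within 0.1 and 53.0% were negative, against 70% and 75% of the 60 members at that level. With upper-quartile scaling both medians moved down, to -0.08 for the members and -0.04 for all tested genes.

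**Figure D2:**
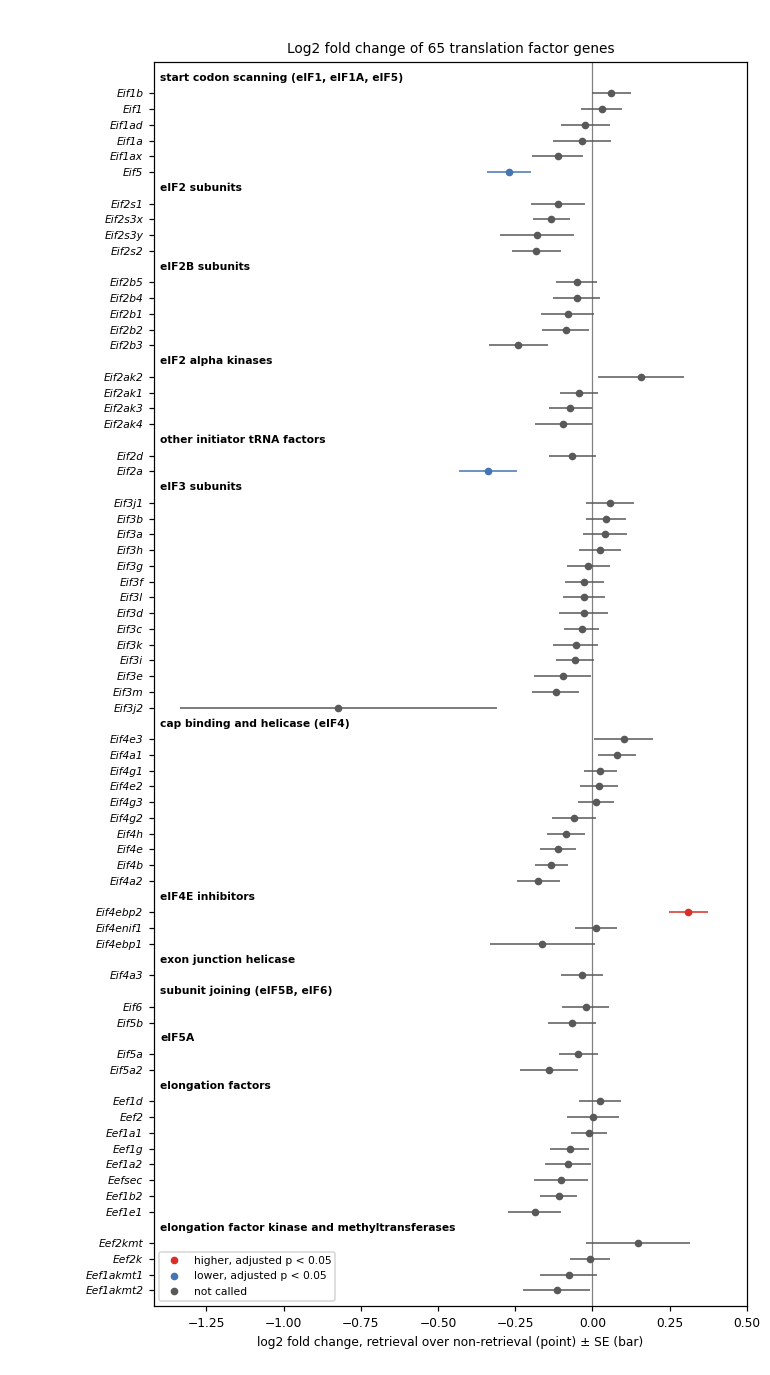
Log2 fold change (retrieval over non-retrieval) of the 65 genes with its standard error as a bar, grouped by class; red marks the gene past adjusted p 0.05 as higher, blue those lower, grey the rest. Most points lie just left of 0, Eif4ebp2 stands alone on the right at 0.31, and Eif3j2 has the widest bar.

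Among the inhibitors of eIF4E, Eif4ebp2 rose. Eif4ebp2 (ENSMUSG00000020091, chr10:61428491-61452661, minus strand, GRCm38) encodes 4E-BP2, the eIF4E-binding protein that predominates in brain. Its level was 64.9, 70.5, 74.1 and 63.9 CPM in non-retrieval libraries 1 to 4 and 83.2, 84.4, 83.4 and 87.9 CPM in retrieval libraries 1 to 4. The lowest retrieval library was above the highest non-retrieval library. The mean went from 68.3 ± 4.81 (SD, n = 4) to 84.7 ± 2.18 CPM (SD, n = 4), with a log2 fold change of 0.31 (SE 0.06, 95% interval 0.17 to 0.45, edgeR adjusted p = 0.0109). The call was kept without any 1 library except non-retrieval library 4, without which the adjusted p was 0.0520. With the mean level of the myelin markers as a covariate the log2 fold change was 0.24 (edgeR adjusted p = 0.270), and with the length and GC offset it was 0.26 (edgeR adjusted p = 0.00501).

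The other eIF4E inhibitors did not pass the test. Eif4ebp1 encodes the best-studied 4E-BP, whose mRNA was 6.59 TPM here against 47.7 TPM for Eif4ebp2. It had 4.24 ± 0.716 CPM (SD, n = 4) in the non-retrieval and 3.78 ± 0.833 CPM (SD, n = 4) in the retrieval libraries, a log2 fold change of -0.16 (SE 0.17). Eif4enif1, which encodes the eIF4E transporter 4E-T, had a log2 fold change of 0.01 (SE 0.07). The ratio of Eif4ebp2 to Eif4e in TPM was 0.681 ± 0.0536 (SD, n = 4) in the non-retrieval and 0.913 ± 0.0376 (SD, n = 4) in the retrieval libraries, given as a description because this ratio was chosen after the values were seen.

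**Figure D3:**
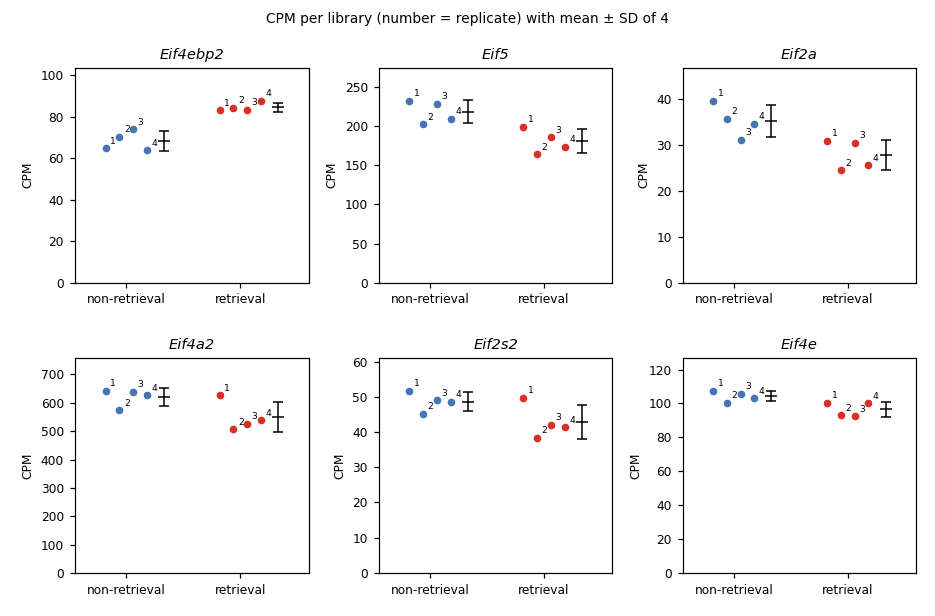
CPM per library for Eif4ebp2, Eif5, Eif2a, Eif4a2, Eif2s2 and Eif4e, with the replicate number beside each point and the mean ± SD of 4 libraries as a bar; each vertical axis starts at 0. The groups separate clearly for Eif4ebp2 only, they nearly touch for Eif5, Eif2a and Eif4e, and retrieval library 1 lies inside the non-retrieval range for Eif4a2 and Eif2s2.

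None of the 10 genes of the cap-binding and helicase class passed the adjusted edgeR test, 2 had an unadjusted p under 0.05, and their signs were split evenly, 5 positive and 5 negative. Eif4a2 had 643, 574, 639.8 and 626 CPM in non-retrieval libraries 1 to 4 and 627, 507, 525 and 539 CPM in retrieval libraries 1 to 4. Retrieval library 1 lay inside the non-retrieval range, and the other retrieval libraries were below all of them. The log2 fold change was -0.18 (SE 0.07, edgeR adjusted p = 0.184), and without retrieval library 1 it was -0.24 (edgeR adjusted p = 0.0172). Leaving out any other 1 library did not bring Eif4a2 past the threshold. Without non-retrieval library 1 it was at -0.16 (edgeR adjusted p = 0.323). Eif4a2 shares 194 exon bases with Rfc4 on the opposite strand. It also shares exon bases with several small RNAs on the same strand, the most (178) with Snora81, so its level is uncertain. Its paralogue Eif4a1 had 178 ± 12.6 CPM (SD, n = 4) against 189 ± 3.55 CPM (SD, n = 4), with a log2 fold change of 0.08 (SE 0.06).

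Eif4b, the helicase's cofactor, had 212.7, 218.9, 209.3 and 216.7 CPM in the non-retrieval libraries and 200.9, 193.5, 194.5 and 193.2 CPM in the retrieval libraries. The groups did not overlap, and the log2 fold change was -0.13 (SE 0.05, edgeR adjusted p = 0.197). The cap binder Eif4e had 107.5, 100.6, 105.9 and 103.1 CPM in the non-retrieval libraries and 100.5, 93.0, 92.6 and 100.03 CPM in the retrieval libraries, so that the groups almost met. Its log2 fold change was -0.11 (SE 0.06, edgeR adjusted p = 0.337). The scaffolds were close to level, at 0.03 (SE 0.05) for Eif4g1 and 0.01 (SE 0.06) for Eif4g3 on the log2 fold scale, and Eif4g2, which encodes the cap-independent relative DAP5, was at -0.06 (SE 0.07). Eif4a3, the helicase of the exon junction complex, which marks spliced mRNA, was at -0.03 (SE 0.07).

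Eif2a, 1 of 2 genes whose factors can bring initiator tRNA to the ribosome without eIF2, was lower in the retrieval group. Eif2a (ENSMUSG00000027810, chr3:58525821-58557501, plus strand, GRCm38) had 39.7, 35.7, 31.1 and 34.6 CPM in non-retrieval libraries 1 to 4 and 30.9, 24.5, 30.5 and 25.6 CPM in retrieval libraries 1 to 4. Non-retrieval library 3 was just above retrieval library 1, and the groups did not overlap. The mean went from 35.3 ± 3.55 (SD, n = 4) to 27.9 ± 3.28 CPM (SD, n = 4), with a log2 fold change of -0.34 (SE 0.09, 95% interval -0.54 to -0.14, edgeR adjusted p = 0.0485). The call sat at the threshold: it was lost without any 1 library other than retrieval library 1 (edgeR adjusted p 0.0516 to 0.152), with DESeq2's size factors in edgeR (adjusted p = 0.0503), without both libraries numbered 1 (edgeR adjusted p = 0.0508) and with the myelin covariate (log2 fold change -0.11, edgeR adjusted p = 0.733). Eif2a shares 72 exon bases with Serp1 on the opposite strand, and the strand setting of the counting is not given in the sources used here. Eif2d, the other gene of this kind, had a log2 fold change of -0.07 (SE 0.08).

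All 4 eIF2 subunit genes had negative log2 fold changes, from -0.18 to -0.11, and none passed the adjusted edgeR test, with 2 at an unadjusted p under 0.05. Eif2s2 (the beta subunit) had 51.7, 45.2, 49.0 and 48.6 CPM in non-retrieval libraries 1 to 4 and 49.7, 38.3, 42.1 and 41.4 CPM in retrieval libraries 1 to 4. Retrieval library 1 again lay among the non-retrieval libraries, while the other 3 were below them. The log2 fold change was -0.18 (SE 0.08, edgeR adjusted p = 0.231), and without retrieval library 1 it was -0.25 (edgeR adjusted p = 0.0315). Leaving out any other 1 library did not bring Eif2s2 past the threshold. Without non-retrieval library 1 the log2 fold change was -0.15 (edgeR adjusted p = 0.420). With the myelin covariate it was 0.00 (edgeR adjusted p = 0.993). Eif2s3x (the gamma subunit) had 62.6 to 64.4 CPM in the non-retrieval and 55.6 to 61.9 CPM in the retrieval libraries, which did not overlap, with a log2 fold change of -0.13 (SE 0.06, edgeR adjusted p = 0.245). Eif2s1, the alpha subunit that the stress kinases phosphorylate, had 33.1 ± 0.447 CPM (SD, n = 4) against 30.6 ± 4.12 CPM (SD, n = 4), and the retrieval libraries lay on both sides of the non-retrieval ones.

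The 5 eIF2B subunit genes were all negative as well (median -0.08), with 0 called in edgeR and 1 at an unadjusted p under 0.05. Eif2b3 had the largest difference among them, from 12.8 ± 0.947 (SD, n = 4) to 10.8 ± 1.04 CPM (SD, n = 4), with a log2 fold change of -0.24 (SE 0.10, edgeR adjusted p = 0.183), and the highest retrieval library (12.2 CPM) was above the lowest non-retrieval library (11.97 CPM). None of the 4 eIF2 alpha kinases passed the test or had an unadjusted p under 0.05. Their log2 fold changes were -0.04 (SE 0.06) for Eif2ak1 (HRI, the heme-regulated kinase), 0.16 (SE 0.14) for Eif2ak2 (PKR), -0.07 (SE 0.07) for Eif2ak3 (PERK, of the endoplasmic reticulum) and -0.10 (SE 0.09) for Eif2ak4 (GCN2, which senses uncharged tRNA). The 95% intervals of all 4 held 0, and the widest, that of Eif2ak2, ran from -0.14 to 0.45. Eif2ak3 libraries did not overlap, at 31.7 to 35.4 CPM against 30.9 to 31.6 CPM.

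Eif5 was the lower member of the scanning class, and the other 5 genes did not pass. Eif5 (ENSMUSG00000021282, chr12:111538016-111546752, plus strand, GRCm38) encodes the GTPase activator that acts on eIF2 at the start codon. It had 233, 202, 229 and 209 CPM in non-retrieval libraries 1 to 4 and 199.6, 164, 186 and 173 CPM in retrieval libraries 1 to 4. The highest retrieval library was just below the lowest non-retrieval library. The mean went from 218 ± 14.8 (SD, n = 4) to 181 ± 15.3 CPM (SD, n = 4), with a log2 fold change of -0.27 (SE 0.07, 95% interval -0.42 to -0.12, edgeR adjusted p = 0.0371). The call was kept only without non-retrieval library 2 or without retrieval library 1, and was lost without any other library (edgeR adjusted p 0.0713 to 0.127) and with the myelin covariate (log2 fold change -0.10, edgeR adjusted p = 0.660). Without both libraries numbered 1 it was kept (edgeR adjusted p = 0.0168), and the gene's exons share 127 bases with the small nucleolar RNA Snora28 on the same strand.

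The remaining scanning genes were level or slightly lower. Eif1, which keeps start codon choice strict, had 203.7 ± 16.6 CPM (SD, n = 4) against 208 ± 6.49 CPM (SD, n = 4), with a log2 fold change of 0.03 (SE 0.07). Its near copy Eif1b was at 0.06 (SE 0.06). Eif1ax was at -0.11 (SE 0.08), Eif1a at -0.03 (SE 0.09) and Eif1ad at -0.02 (SE 0.08).

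The genes of eIF3, the scaffold that binds the small subunit, were mostly level. Of 14 genes, 12 had a log2 fold change within 0.1 of 0, 0 were called, and 0 reached an unadjusted p of 0.05 in edgeR. Apart from Eif3j2, they ran from -0.12 (Eif3m) to 0.06 (Eif3j1). Eif3j2 had 5.88, 1.77, 1.35 and 0.774 CPM in non-retrieval libraries 1 to 4 and 2.32, 1.14, 0.383 and 1.63 CPM in retrieval libraries 1 to 4. Its values ranged widely inside both groups, and the log2 fold change was -0.82 with an SE of 0.51 (edgeR adjusted p = 0.418). When genes of low count were not removed, the edgeR adjusted p of Eif3j2 was 0.00931, and without non-retrieval library 1, its highest, the log2 fold change was 0.10. Eif3d shares 43.3% of its exon bases with an antisense gene, Gm17638, so its level is uncertain as well.

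The factors of subunit joining and eIF5A did not pass either. Eif5b, the GTPase that joins the large subunit, had a log2 fold change of -0.07 (SE 0.08) and Eif6, which keeps the large subunit from joining early, of -0.02 (SE 0.08). Eif5a, which helps the ribosome past difficult stretches and carries the modified amino acid hypusine, had 281.7 ± 17.9 CPM (SD, n = 4) against 273.0 ± 14.9 CPM (SD, n = 4), with a log2 fold change of -0.05 (SE 0.06). Eif5a2 was at -0.14 (SE 0.09).

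No elongation factor passed the test, although 1 of 8 (Eef1e1) had an unadjusted p under 0.05 in edgeR. Eef2, which moves the ribosome along the mRNA, was level. Eef2 had 1424, 1708, 1657 and 1699 CPM in non-retrieval libraries 1 to 4 and 1349, 1790.3, 1621 and 1734 CPM in retrieval libraries 1 to 4. Both libraries numbered 1 were low and the other 6 were close together. The mean was 1622 ± 134 CPM (SD, n = 4) and 1624 ± 196 CPM (SD, n = 4), with a log2 fold change of 0.00 (SE 0.08, 95% interval -0.17 to 0.18). Eef1a1 had 1767 ± 78.0 CPM (SD, n = 4) against 1753 ± 74.3 CPM (SD, n = 4), with a log2 fold change of -0.01 (SE 0.06).

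Eef1a2 had 1445, 1745, 1730.3 and 1731 CPM in non-retrieval libraries 1 to 4 and 1405, 1680.1, 1546 and 1661 CPM in retrieval libraries 1 to 4. As with Eef2, both libraries numbered 1 were the lowest of their groups, and the log2 fold change was -0.08 (SE 0.07). The subunits of the eEF1B exchange factor, which reloads eEF1A with GTP, were at -0.11 (SE 0.06) for Eef1b2, -0.07 (SE 0.06) for Eef1g and 0.02 (SE 0.07) for Eef1d. Eef1e1, which encodes a scaffold protein of the multi-tRNA synthetase complex, had 21.8 ± 0.979 CPM (SD, n = 4) against 19.2 ± 1.94 CPM (SD, n = 4), with a log2 fold change of -0.19 (SE 0.09, edgeR adjusted p = 0.252), and Eefsec, the selenocysteine-specific factor, was at -0.10 (SE 0.09). The kinase gene Eef2k had 40.1 ± 1.17 CPM (SD, n = 4) against 39.8 ± 1.55 CPM (SD, n = 4), with a log2 fold change of -0.01 with a 95% interval of -0.15 to 0.13. The 3 methyltransferase genes, which act on eEF1A or eEF2, were at 0.15 (SE 0.17) for Eef2kmt, -0.08 (SE 0.09) for Eef1akmt1 and -0.12 (SE 0.11) for Eef1akmt2.

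Ratios within 8 pairs of paralogues were compared per library, since paralogues can stand in for each other. An exact two-sided permutation test over 70 arrangements was used, with p-values adjusted over the 8 pairs, and no pair passed. The smallest p this design allows is 0.0286, which adjusted over 8 pairs gives 0.229 for 1 pair alone, and 5 pairs would have to reach it to pass, so the lack of a call says little about any pair. Eif4e to Eif4e2 reached it, at 2.27 ± 0.0729 (SD, n = 4) in the non-retrieval and 2.07 ± 0.0647 (SD, n = 4) in the retrieval libraries (exact permutation p = 0.0286, adjusted p = 0.152), lower in all 4 retrieval libraries than in any non-retrieval library. Eif4a1 to Eif4a2 was 0.354 ± 0.0142 (SD, n = 4) against 0.426 ± 0.0391 (SD, n = 4) (exact permutation p = 0.0571, adjusted p = 0.152). Retrieval library 1, at 0.369, lay below non-retrieval library 4, at 0.375, and the other 3 retrieval libraries were at 0.434 to 0.456.

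Eif4ebp1 to Eif4ebp2 was 0.164 ± 0.0292 (SD, n = 4) against 0.118 ± 0.0256 (SD, n = 4) (exact permutation p = 0.0571, adjusted p = 0.152), with retrieval library 2, at 0.155, among the non-retrieval values. The other 5 pairs had adjusted p-values of 0.686 to 0.886 in the exact permutation test. Eef1a1 to Eef1a2 was 0.892 ± 0.067 (SD, n = 4) against 0.935 ± 0.0513 (SD, n = 4), near parity in both groups.

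**Figure D4:**
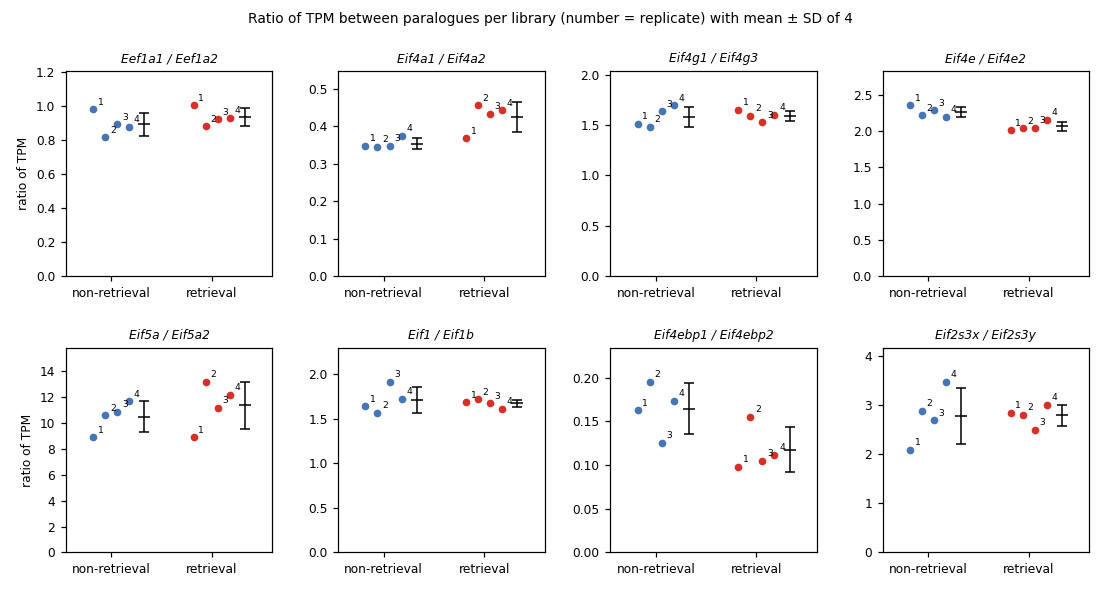
Ratio of TPM between the members of 8 paralogue pairs in each library, with the replicate number beside each point and the mean ± SD of 4 libraries as a bar; each vertical axis starts at 0. Eif4e to Eif4e2 is the 1 pair whose groups do not overlap, and retrieval library 1 lies apart from the other retrieval libraries for Eif4a1 to Eif4a2.

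In 3 of the 8 libraries the levels of the members varied with the GC content of their transcripts, which ran from 37.3% to 60.6%, and in the others the relation was weaker. For each library the deviation of log2 CPM from the gene's mean over 8 libraries was correlated with GC content over the 65 members, which share the library and its depth. Pearson's r was -0.47, -0.12, -0.14 and 0.28 in non-retrieval libraries 1 to 4 and -0.63, 0.79, 0.25 and 0.39 in retrieval libraries 1 to 4. In both libraries numbered 1 the 22 members of lowest GC content (up to 45.2%) were high, with median deviations of 0.125 (non-retrieval) and 0.126 (retrieval), and in retrieval library 2 they were low, with a median of -0.19. Across members the log2 fold change between the groups had r = 0.43 with GC content, and 0.37 with the length and GC offset.

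Of the 8 members lower at an unadjusted p of 0.05, 6 were among the 22 of lowest GC content: Eif2s2 (40.7%), Eif2a (41.0%), Eif4a2 (41.6%), Eif5 (43.1%), Eif2s3x (44.0%) and Eef1e1 (45.1%). Eif4ebp2, at 53.2%, was not. With the length and GC offset the log2 fold change of Eif5 was -0.28 (edgeR adjusted p = 0.000748) and that of Eif2a was -0.34 (edgeR adjusted p = 0.00368). Eif2s2, Eif4a2 and Eif4b were also called lower (edgeR adjusted p = 0.0355, 0.0381 and 0.0414), so that 1 member was higher and 5 were lower. Over all tested genes the offset also raised the lower calls, from 151 (0.902%) to 708 (4.23%), with 784 higher (4.69%).

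**Figure D5:**
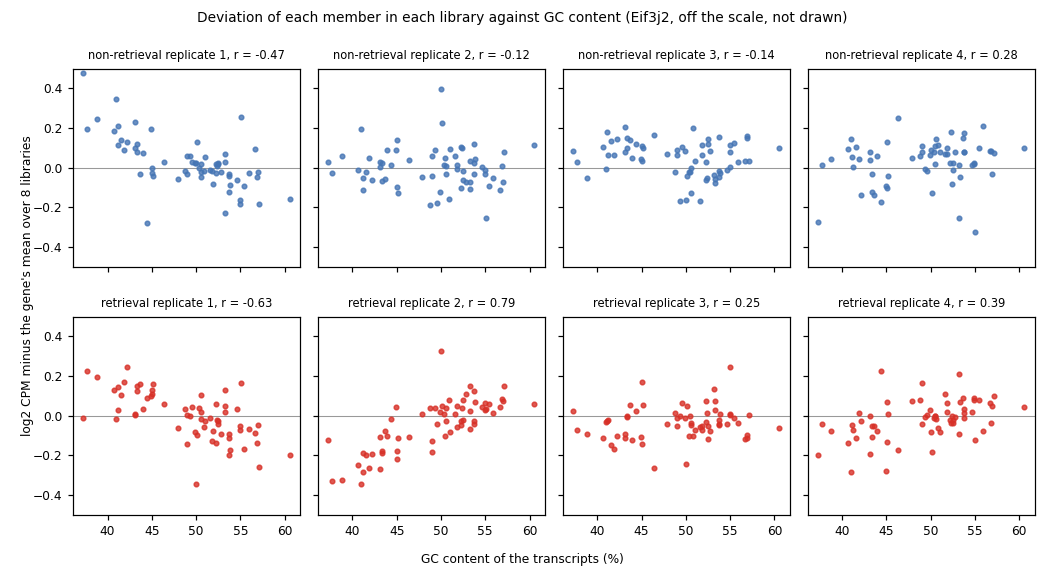
Deviation of each member's log2 CPM from its mean over 8 libraries (vertical axis) against the GC content of its transcripts in percent (horizontal axis), in 1 panel per library, with Pearson's r above; Eif3j2 is off the scale. Points fall from left to right in both libraries numbered 1 and rise in retrieval library 2.

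The other genes of the pathway were taken as 8 lists, of whose 107 tested genes 4 were higher and 2 lower in edgeR's test (5.61%, against the 4.57% of all tested genes). Of 20 genes of the mTORC1 pathway 1 rose and 0 fell. It was Ddit4 (REDD1, a stress-induced inhibitor of mTORC1), from 30.7 ± 4.06 (SD, n = 4) to 44.5 ± 3.38 CPM (SD, n = 4), with a log2 fold change of 0.53 (SE 0.09, edgeR adjusted p = 0.00244). Its libraries did not overlap, at 26.8 to 34.4 CPM and 41.0 to 49.1 CPM. Tsc1, which encodes a brake on mTORC1, was at 0.18 (SE 0.06, edgeR adjusted p = 0.115), Ddit4l, a relative of Ddit4, at -0.34 (SE 0.14, edgeR adjusted p = 0.196), and Mtor itself at 0.09 (SE 0.06).

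Of 14 regulators of eIF4E and eIF4A, 1 rose and 1 fell. Mknk2 (MNK2, a kinase that phosphorylates eIF4E) had 35.7, 41.9, 39.9 and 44.7 CPM in non-retrieval libraries 1 to 4 and 51.8, 60.5, 61.9 and 58.5 CPM in retrieval libraries 1 to 4. All retrieval libraries were above all non-retrieval libraries, and the log2 fold change was 0.52 (SE 0.08, edgeR adjusted p = 0.000979). Mcts2, an intronless relative of the reinitiation factor Mcts1, fell from 5.18 ± 0.445 (SD, n = 4) to 3.63 ± 0.419 CPM (SD, n = 4) (edgeR adjusted p = 0.0371). Its count is uncertain because the copies are alike. Denr, whose product partners MCTS1, was at -0.17 (SE 0.06, edgeR adjusted p = 0.135).

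Of 18 integrated stress response genes, the response that eIF2 alpha phosphorylation starts, 2 rose and 0 fell. Ppp1r15b (CReP, which directs a phosphatase to eIF2 alpha) went from 51.2 ± 2.62 (SD, n = 4) to 61.5 ± 4.77 CPM (SD, n = 4), with a log2 fold change of 0.26 (SE 0.07, edgeR adjusted p = 0.0406), and Slc7a11, a cystine transporter and ATF4 target, had 0.35 (SE 0.09, edgeR adjusted p = 0.0391). Over the list, 13 of 18 log2 fold changes were positive (median 0.09). At an unadjusted p under 0.05 in edgeR, 4 genes were higher and 2 lower. The 2 lower were Chac1 at -0.38 (SE 0.11, edgeR adjusted p = 0.0527) and Asns at -0.15 (SE 0.07). Psat1 at 0.15 (SE 0.06) and Ppp1r15a at 0.20 (SE 0.09) were among the 4 higher and did not pass the adjusted test. Ddit3 was at 0.08 (SE 0.08). Atf4 itself was at 0.15 (SE 0.07, edgeR adjusted p = 0.277).

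Enzymes that modify eIF5A or eEF2 had 0 of 9 higher and 1 lower, Dph7 of the diphthamide pathway, from 16.9 ± 0.671 (SD, n = 4) to 13.5 ± 0.791 CPM (SD, n = 4) with a log2 fold change of -0.32 (SE 0.08, edgeR adjusted p = 0.0339). Dph3 and Dph1, of the same pathway, were both at -0.20 (edgeR adjusted p = 0.165 and 0.326). No gene passed among 20 cytosolic aminoacyl-tRNA synthetases, 10 mitochondrial translation factors, 10 poly(A)-binding proteins and partners and 6 termination and recycling factors in edgeR's test, where 4, 1, 1 and 0 genes of these lists had an unadjusted p under 0.05. The synthetases, which charge the tRNAs that eEF1A delivers, had a median log2 fold change of -0.08 with 18 of 20 negative, led by Gars at -0.18, Yars at -0.17 and Nars at -0.14 (edgeR adjusted p = 0.106, 0.129 and 0.221). The mitochondrial factors had a median of -0.11 with 8 of 10 negative, led by Guf1 at -0.28, Tufm at -0.12 and Mtif3 at -0.14 (edgeR adjusted p = 0.102, 0.396 and 0.508). The poly(A)-binding list had a median of 0.03, with the cytoplasmic polyadenylation element binding proteins Cpeb3 at 0.24, Cpeb2 at 0.11 and Cpeb4 at 0.10 (edgeR adjusted p = 0.0947, 0.478 and 0.534), and among termination and recycling factors Gspt1 was at 0.07, Abce1 at -0.07 and Etf1 at -0.02.

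Markers of cell types were set beside these values. Besides the myelin markers above, striatal projection neuron markers had 0 of 10 called. They were at a summed 318.5 to 372.8 CPM in the non-retrieval and 312.6 to 524.5 CPM in the retrieval libraries. Among the retrieval libraries each of these 10 markers was highest in library 2, which gave the upper end of that range. Adora2a was at 12.35 CPM there, against 2.45 to 3.43 CPM in the other retrieval libraries. Astrocyte markers were at 4422 to 4840 CPM and 4636 to 5446 CPM with 0 of 8 called. Among inhibitory neuron markers Pvalb fell (log2 fold change -0.41), and among erythroid markers Hbb-bs fell (log2 fold change -0.44), with the other 5 and 4 not called. Excitatory neuron, microglial and endothelial markers had 0 of 8, 0 of 8 and 0 of 7 called, and of 5 choroid plexus markers 1 could be tested and was not called. No marker list other than myelin was used as a covariate, and the part of these lists in the differences of the members was not tested.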

How the data were processed

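Per the labels' protocols, RNeasy Micro was used for RNA and NEBNext Ultra for libraries. The authors deposited raw counts of reads per gene, made with HISAT2 2.0.5 and featureCounts 1.5.0-p3 on GRCm38, per the submitters' processing notes. Neither the annotation release nor the strand setting is given in the sources used here. Counts, 25013503 to 29547978 per library, were filtered with filterByExpr, scaled with TMM and compared with edgeR 4.0.16 (R 4.3.3, limma 3.58.1), as a two-sided quasi-likelihood F test with Benjamini-Hochberg adjustment over 16745 genes and a threshold of 0.05. TPM used the deposited gene lengths. Log2 CPM used a prior count of 2. GC content and exon overlaps came from GENCODE M21, in which 62 of the 65 members had the same start and end. There 27 of the 65 members shared exon bases with another gene, 18 on the opposite and 12 on the same strand. The effect of these overlaps on the counts was not tested. Alternatives were other scaling factors and filters, DESeq2 1.42.0, limma-voom, a replicate block, a length and GC offset (loess span 0.5), a myelin covariate and leaving out each library. Removal of both libraries numbered 1 was added after seeing the data. The fit was tested on simulated counts.

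The members, lists and tests were chosen with earlier results of these data known. Named were members past the threshold, the 12 with the smallest p, fixed key factors, the most and least abundant of each class and those next to the read minimum; from the other lists, genes past the threshold and the 3 with the smallest p. Pdpk1 took the place of Pdk1, listed by mistake, after the values were seen. The other genes named were chosen after their values were seen.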

Additional observations from a re-analysis of the deposited data

Results flagged for a closer look

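Among 80 groups of 4 libraries, 40 named members in each condition, 5 held a library farther from the rest than Dixon's 95% critical value, and chance gives about 1 in 20. Eef1a2 was 1445 CPM in non-retrieval library 1, against 1730.3 to 1745 CPM in the other 3. Eif4b was 200.9 CPM in retrieval library 1, against 193.2 to 194.5 CPM, and Eif1ad was 26.05 CPM in the same library, against 24.34 to 24.56 CPM. Eif2ak1 was 67.19 CPM in retrieval library 2, against 72.21 to 73.04 CPM. Eef2k was 37.52 CPM in retrieval library 4, against 40.46 to 40.71 CPM. None of these 5 genes was called between the groups in edgeR's quasi-likelihood test.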

How the results depend on the processing

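Of 720 values of the 40 named members under 18 alternatives, 646 kept direction and side of the threshold, 19 were no longer past it, 12 came past it and 43, in 15 members, changed sign. In 0 of these 43 was the gene past the threshold in either fit. The 2 members called lower became 1 with DESeq2's size factors, 5 with limma-voom, 4 with the replicate block, 5 with the length and GC offset and 0 with the myelin covariate. The 1 member called higher became 0 with the myelin covariate. Leaving out each library gave 0 to 4 lower and 0 to 1 higher. Over all genes 766 calls became 1619 with limma-voom, 1791 with the replicate block, 1492 with the length and GC offset, 169 with the myelin covariate and 330 (without non-retrieval library 4) to 1360 (without retrieval library 1) on leaving out each library. The lower calls over all genes went from 151 to 509 with limma-voom, 517 with the replicate block and 708 with the offset. The median log2 fold change of the members went from -0.05 to -0.0809 with upper-quartile factors, while that of all tested genes went from -0.01 to -0.04, and the members' median lay between -0.06 and -0.04 on leaving out each library. The myelin covariate moved with the groups, so calls lost with it cannot be assigned to myelin level or to group. The causes of these shifts were not tested.

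The log2 fold changes whose sign changed were these. With upper-quartile factors Eef2 was at -0.0246, Eif4g1 at -0.000972, Eif4g3 at -0.0139 and Eif3h at -0.00216. With limma-voom Eef1a1 was at 0.0133 and Eif6 at 0.0129, and without both libraries numbered 1 Eif6 was at 0.00150. With the length and GC offset Eef2 was at -0.0204, Eef1a1 at 0.0247, Eif4g1 at -0.0568 and Eif4g3 at -0.108. With the myelin covariate Eif2s2 was at 0.00321, Eif2ak1 at 0.00283, Eef2 at -0.208, Eef2k at 0.0198, Eif4g1 at -0.0135, Eif4g3 at -0.0411, Eif1ad at 0.0640, Eif5b at 0.0705, Eif5a2 at 0.0784 and Eif3h at -0.0378. On leaving out each library Eif3j2 ran from -1.20 (without retrieval library 1) to 0.103 (without non-retrieval library 1), Eef2 from -0.0542 to 0.0879, Eef2k from -0.0298 to 0.0183, Eef1a1 from -0.0386 to 0.0144, Eif4g3 from -0.0127 to 0.0493, Eif1ad from -0.0605 to 0.0369, Eif4a3 from -0.0771 to 8.98e-05, Eif1 from -0.0224 to 0.0698, Eif3h from -0.0253 to 0.0520 and Eif6 from -0.0561 to 0.0348. Of 80 values of the paralogue ratios 6, in 3 pairs, changed sign, all on leaving out a library: the log2 difference ran from -0.0186 to 0.0454 for Eif4g1 to Eif4g3, from -0.0696 to 0.0275 for Eif1 to Eif1b and from -0.107 to 0.138 for Eif2s3x to Eif2s3y.

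The replicate numbers were not treated as pairs: the correlations of same-numbered libraries over all genes were 0.22, 0.09, 0.03 and 0.10, and over the 65 members 0.80, 0.38, 0.49 and -0.31. Over all genes each of 8 libraries correlated best with its own number, a hint from the data and not from the labels. Over the 65 members this did not hold for every library. Retrieval library 3 correlated best with non-retrieval library 4 (0.72), and retrieval library 4 with non-retrieval library 1 (0.31). The low-count gene Eif3j2 weighs heavily in all these values over the 65 members. Its log2 CPM deviated from its mean by 1.96 and -0.85 in non-retrieval libraries 1 and 4. In retrieval libraries 1 and 3 it deviated by 0.65 and -1.75. Correlations without Eif3j2 were not computed, so the values over the members say little about pairing. With the replicate block Eif2s2 (edgeR adjusted p = 0.0389) and Eif4a2 (edgeR adjusted p = 0.0187) were also called lower, Eef2 was at -0.00317, and Eif4ebp2, Eif5 and Eif2a were kept. Over all genes that fit called 1274 higher and 517 lower. For the paralogue ratios the exact sign-flip test over 4 pairs has a smallest p of 0.125. Most members differed by less than 0.1 on the log2 scale, where the median standard error was 0.0719.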
